A study of Mus musculus with 18 samples.

Results

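The genes described here mark B cells and plasma cells: 9 genes, Cd79a, Cd79b, Ms4a1, Cd22, Fcrla, Pax5, Pou2af1, Mzb1 and Tnfrsf17, out of 22180 genes measured in the mouse ileum. A gene was taken by its symbol in the array's platform annotation, and each of the 9 had 1 probe set. The RNA came from 18 B10.BR mice aged 8 to 12 weeks at transplant, all given 11 Gy of total body irradiation and then 5000000 T cell-depleted marrow cells from C57Bl/6 donors. In 9 mice the graft also held 2000000 purified donor T cells, and the labels describe these as mice with graft-versus-host disease (GvHD), in which donor T cells attack the host's tissues. All mice were gavaged daily from the day before transplant until the ileum was taken on day 21. The gavage was 150 mg/kg indole-3-carboxaldehyde (ICA), a tryptophan metabolite made by gut bacteria, or its vehicle of 20% DMSO, 40% PEG400 and 2% citric acid. This gave 4 marrow-only mice on vehicle, 5 marrow-only mice on ICA, 4 T cell mice on vehicle and 5 T cell mice on ICA, with 1 array for each mouse. The marrow-only mice were transplanted and irradiated too, so no group shows an untouched ileum. Sex is not given in the sources used here, and array values do not tell donor from host RNA.

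A B cell senses antigen through a membrane antibody that is held and coupled to signalling by the CD79A and CD79B chains. After activation some B cells become plasma cells, which give up most B cell surface proteins, expand their secretory pathway and release antibody. In the ileum B cells gather in Peyer's patches and isolated follicles, and plasma cells of the lamina propria make IgA that the epithelium carries into the lumen. PAX5 holds the B cell programme in place, and POU2AF1 works with the octamer-binding POU factors in B and plasma cells. After marrow transplantation B cells have to be rebuilt from donor marrow, and GvHD is known to delay this.

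Promoter sequence was at hand in RefSeq's GRCm38.p6 table for 6 of the 9 genes: Cd79a, Cd22, Fcrla, Pax5, Pou2af1 and Tnfrsf17. Those of Cd79a and Fcrla are shown, because they had the smallest p values of the 9 in T cell against marrow-only mice on vehicle. Each line gives the 250 bases before the gene's start, 5′ to 3′ along the gene's strand, in lower case, with CAGGTG, the E box bound by E proteins such as E2A, in capitals. The Cd79a window is chr7:24897247-24897496 on the plus strand and the Fcrla window is chr1:170927584-170927833 on the minus strand.
Cd79a: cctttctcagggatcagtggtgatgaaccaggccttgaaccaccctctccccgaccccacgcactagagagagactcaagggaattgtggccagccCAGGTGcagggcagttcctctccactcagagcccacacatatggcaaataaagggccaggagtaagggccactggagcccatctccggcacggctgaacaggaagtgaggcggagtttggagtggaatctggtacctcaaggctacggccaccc
Fcrla: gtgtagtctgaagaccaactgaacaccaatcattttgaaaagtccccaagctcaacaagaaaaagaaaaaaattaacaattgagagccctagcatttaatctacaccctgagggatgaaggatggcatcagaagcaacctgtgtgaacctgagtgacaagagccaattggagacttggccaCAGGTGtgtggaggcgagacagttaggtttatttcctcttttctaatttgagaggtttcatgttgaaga
A set of 4 letter patterns was searched on both strands of the 300-base windows that run from 250 bases before to 50 after the start, and the patterns do not contain one another. CAGGTG was in 3 of the 6 windows, 154 bases before the start of Cd79a, 69 before that of Fcrla and 245 before that of Cd22, and in 20.2% of all 32851 windows in the table that were used. The EBF palindrome was in 1 of the 6, 49 bases before the start of Cd22, against 0.904% of all windows. The octamer ATGCAAAT and the PU.1 pattern GAGGAAGT were in 0 of the 6, against 1.74% and 3.2% of all windows. These are matches of letters in one window and no measure of binding.

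Array values are log2 units, so a difference of 1 is a doubling of signal, and levels of one gene's probe set are not compared with those of another gene. Array medians lay between 6.469 and 6.51, and any pair of arrays correlated at 0.9782 to 0.9932. T cell ICA mouse 1 stood apart: its interquartile range was 2.534 against 2.649 to 2.763 on the other arrays. On the first principal component (20.9% of the variance) it lay at 1.1, against 11.3 to 18.8 for the other 8 T cell mice and -22.8 to -0.4 for the marrow-only mice. In the comparisons that hold this mouse, calls of the 9 genes are therefore given with and without it wherever it changes them. The mouse also enters the shared spread used on vehicle, where it was left out only together with marrow-only ICA mouse 2. The tissue label was checked on Vil1, Cdx2, Fabp6 and Slc10a2, genes of villi, intestinal identity and ileal bile acid uptake, whose lowest values in any mouse were 11.87, 9.13, 11.81 and 10.27.

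Differences were tested with limma in a model of all 18 mice, with Benjamini-Hochberg adjustment over all 22180 genes. Genes with an adjusted p under 0.05 count as changed, or called. On vehicle, T cell mice had lower means than marrow-only mice for 9 of 9 genes. The fall was called for Cd79a, Cd79b and Fcrla, at 1.23, 0.71 and 0.58 log2 units, that is for 3 of 9, where 0.681% of all genes were called lower and 0.794% higher. The median difference of the 9 genes was -0.58, against 0.01 over all genes. In bulk tissue, fewer B lineage cells and less RNA per cell cannot be told apart. Values of the T cell and marrow-only mice on vehicle did not overlap for 7 of the 9 genes, all but Cd22 and Pax5, and did not overlap in this direction for 4.21% of all genes. For each of these 7 the exact permutation test over the mice gave p = 0.0286, the smallest it can give with 4 mice against 4 (adjusted p = 0.103 over 36 such tests).

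On ICA the T cell mice again had lower means for 9 of 9 genes, and Cd79a, Cd79b and Ms4a1 fell, by 1.23, 0.87 and 0.82. These were 3 of 9 genes, where 2.07% of all genes were called lower and 1.05% higher, and the median of the 9 was -0.46 against -0.01 over all genes. Groups overlapped for all 9 genes here, and 2.17% of all genes had no overlap in this direction. Averaged over both treatments, which uses the same mice and is no separate support, 6 of 9 genes fell: Cd79a, Cd79b, Ms4a1, Fcrla, Pou2af1 and Mzb1. In that average 3.62% of all genes were called lower and 3.58% higher, and the median of the 9 was -0.47 against 0.00 over all genes. No gene of the 9 was free of overlap between all 9 T cell mice and all 9 marrow-only mice, where 0.446% of all genes had no overlap in the lower direction. Tnfrsf17, Pax5 and Cd22 were not called in any of these comparisons.

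**Figure D1:**
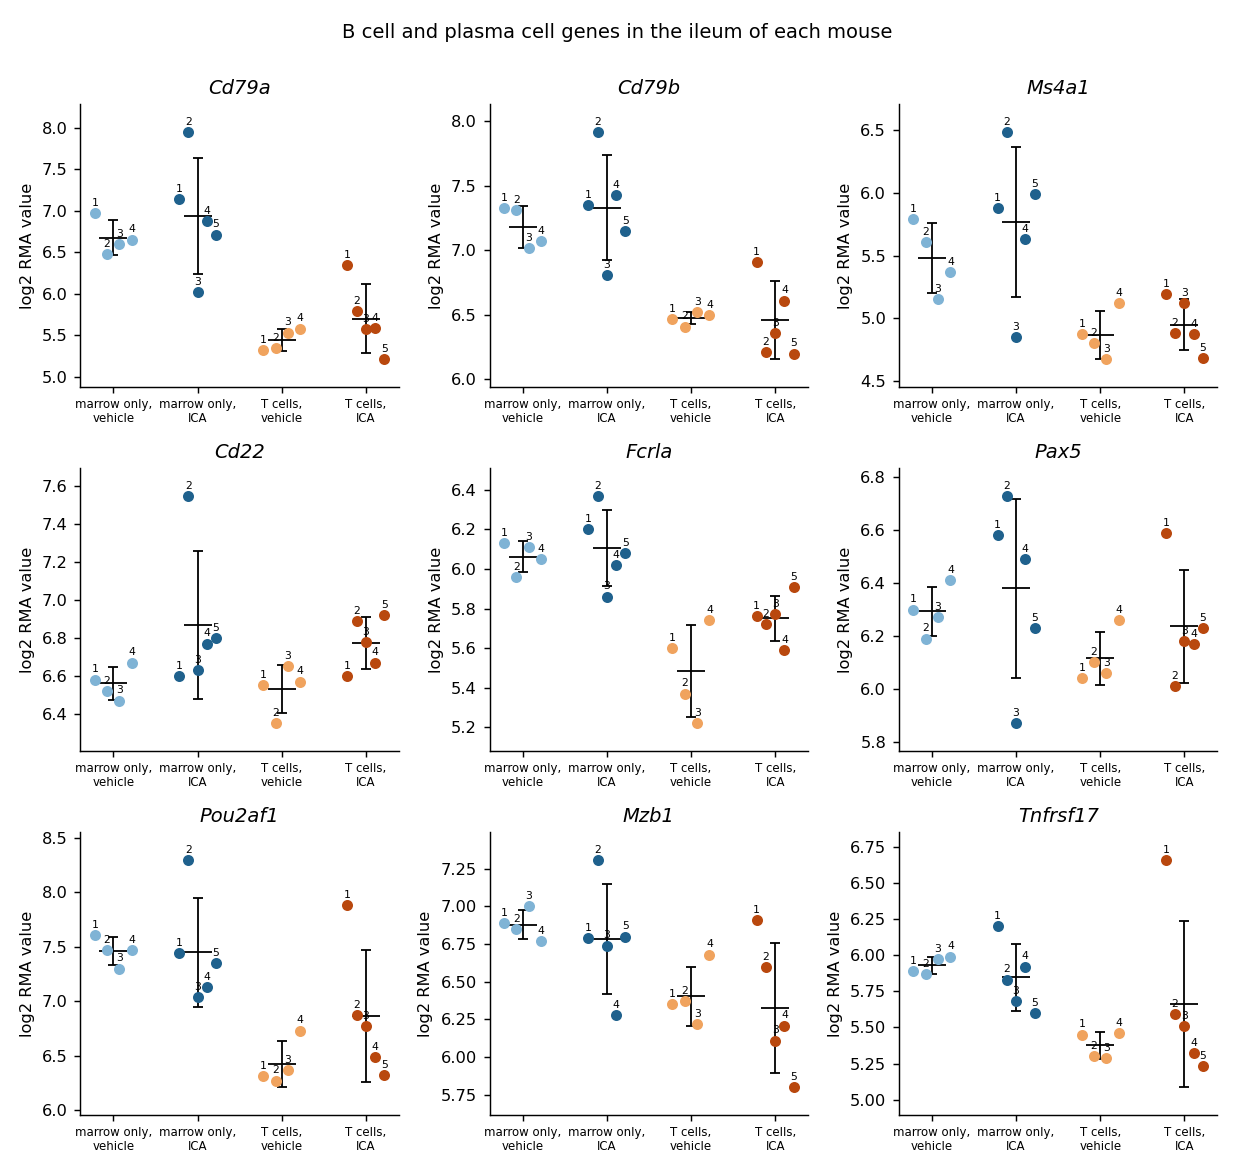
Log2 RMA value of each of the 9 genes (vertical axis, scaled separately for each gene) in every mouse, by group; numbers are mouse numbers, long bars group means and error bars SD (n = 4 or 5). For Cd79a 8 of 9 T cell mice lie below all marrow-only mice, while for Cd22 the groups overlap.

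Cd79a encodes the signalling chain that pairs with CD79B under the antigen receptor. In marrow-only mice 1 to 4 on vehicle it stood at 6.97, 6.48, 6.60 and 6.65, and in mice 1 to 5 on ICA at 7.14, 7.95, 6.02, 6.87 and 6.71. T cell mice 1 to 4 on vehicle had 5.32, 5.34, 5.53 and 5.58, and T cell mice 1 to 5 on ICA had 6.34, 5.79, 5.57, 5.59 and 5.21. Every T cell mouse except ICA mouse 1 was below every marrow-only mouse. Cd79a fell by 1.23 ± 0.27 (SE) on vehicle, a 2.35-fold drop with a 95% interval of -1.80 to -0.66 (adjusted p = 0.0258, 4 against 4 mice, limma). On ICA the fall was 1.23 ± 0.24 (adjusted p = 0.0067, limma), and averaged over treatments 1.23 ± 0.18 (adjusted p = 0.000275, limma). Leaving out 1 of the 8 vehicle mice at a time ended the call on vehicle in 6 of 8 cases, with differences of -1.30 to -1.13 and adjusted p of 0.0457 to 0.0922 in limma.

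Cd79b encodes the partner chain. Marrow-only vehicle mice had 7.33, 7.31, 7.02 and 7.07, and marrow-only ICA mice had 7.35, 7.92, 6.81, 7.43 and 7.15. T cell vehicle mice lay close together at 6.47, 6.41, 6.52 and 6.5, with T cell ICA mice at 6.91, 6.21, 6.36, 6.61 and 6.20. Again 8 of 9 T cell mice were below all marrow-only mice, the other being ICA mouse 1. The fall was 0.71 ± 0.18 on vehicle (1.63-fold, adjusted p = 0.048, limma) and 0.87 ± 0.16 on ICA (1.83-fold, adjusted p = 0.0032, limma). Averaged over treatments it was 0.79 ± 0.12 (adjusted p = 0.000291, limma). The call on vehicle was lost in 8 of 8 cases when a vehicle mouse was left out, with differences of -0.76 to -0.66 and adjusted p of 0.06 to 0.132 in limma.

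Ms4a1 encodes CD20, a surface protein of mature B cells that plasma cells lack. Marrow-only vehicle mice had 5.79, 5.61, 5.15 and 5.37, and marrow-only ICA mice spread from 4.85 in mouse 3 to 6.49 in mouse 2, with 5.88, 5.63 and 5.99 in mice 1, 4 and 5. T cell mice had 4.87, 4.8, 4.67 and 5.12 on vehicle and 5.19, 4.88, 5.12, 4.87 and 4.68 on ICA. Marrow-only ICA mouse 3 lay among the T cell mice, and 7 of 9 marrow-only mice were above all T cell mice. Ms4a1 fell on ICA by 0.82 ± 0.21 (1.76-fold, adjusted p = 0.0335, limma) and on average by 0.71 ± 0.16 (adjusted p = 0.0065, limma). On vehicle the difference was -0.61 ± 0.23 (adjusted p = 0.225, limma). Its call on ICA was lost in 5 of 10 cases when an ICA mouse was left out, where the differences ran from -1.05 to -0.64.

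Cd22 encodes an inhibitory lectin coreceptor that dampens B cell receptor signalling. Its values were 6.58, 6.52, 6.47 and 6.67 in marrow-only vehicle mice and 6.55, 6.35, 6.65 and 6.57 in T cell vehicle mice. On ICA they were 6.60, 7.55, 6.63, 6.77 and 6.80 without T cells and 6.60, 6.89, 6.78, 6.67 and 6.92 with them. The arms overlapped under both treatments, and marrow-only ICA mouse 2 alone was well above the rest. Cd22 differed by -0.03 (95% interval -0.34 to 0.28) on vehicle and by -0.10 (-0.37 to 0.18) on ICA between T cell and marrow-only mice. Those intervals do not reach the falls of Cd79a or Cd79b in the same comparisons. Of the 9 genes, 2 had a mean over all mice above the median of all genes, 6.86, and Cd22, at 6.70, was not among them. Neither were Cd79a (6.20), Ms4a1 (5.28), Fcrla (5.86) and Mzb1 (6.59), which were called lower on average, nor Tnfrsf17 (5.71) and Pax5 (6.26), which were not called. Signals near background understate differences, and the part of this in the values of Cd22 or of the other genes was not tested.

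Fcrla encodes an intracellular protein of the Fc receptor family made in B cells. Marrow-only mice kept to a narrow range, 6.13, 5.96, 6.11 and 6.05 on vehicle and 6.20, 6.37, 5.86, 6.02 and 6.08 on ICA. T cell mice had 5.60, 5.37, 5.22 and 5.74 on vehicle and 5.76, 5.72, 5.77, 5.59 and 5.91 on ICA. Here T cell ICA mouse 5 was the only T cell mouse above a marrow-only mouse, ICA mouse 3. Fcrla fell by 0.58 ± 0.12 on vehicle (1.49-fold, 95% interval -0.82 to -0.34, adjusted p = 0.0148, limma). On ICA the difference was -0.35 ± 0.10 (adjusted p = 0.073, limma), and on average the fall was 0.47 ± 0.08 (adjusted p = 0.000861, limma). Without 1 vehicle mouse the call on vehicle was lost in 4 of 8 cases, with adjusted p of 0.0126 to 0.0646 in limma.

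Pax5 encodes the transcription factor that commits cells to the B lineage and is shut off in plasma cells. Values were 6.30, 6.19, 6.27 and 6.41 in marrow-only vehicle mice, against 6.04, 6.10, 6.06 and 6.26 in T cell vehicle mice. Marrow-only ICA mice had 6.58, 6.73, 5.87, 6.49 and 6.23, and T cell ICA mice had 6.59, 6.01, 6.18, 6.17 and 6.23. The ranges overlapped under both treatments. The differences, -0.18 ± 0.15 on vehicle and -0.14 ± 0.13 on ICA, did not pass the test (adjusted p = 0.68 and 0.654, limma).

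Pou2af1 encodes the coactivator OCA-B, found in B cells and in plasma cells. Marrow-only mice had 7.61, 7.47, 7.30 and 7.47 on vehicle and 7.44, 8.30, 7.04, 7.13 and 7.35 on ICA. T cell mice had 6.31, 6.27, 6.37 and 6.73 on vehicle and 7.88, 6.87, 6.77, 6.49 and 6.32 on ICA. T cell ICA mouse 1, at 7.88, was above every marrow-only mouse except ICA mouse 2, and the other 8 T cell mice were below all 9. On vehicle the difference was -1.04 ± 0.26, a 2.06-fold lower signal that just missed the threshold (adjusted p = 0.0515, limma). On ICA it was -0.59 ± 0.24 (adjusted p = 0.2, limma) with T cell ICA mouse 1, and a fall of 0.84 (adjusted p = 0.0156, limma) without it. Averaged over treatments Pou2af1 fell by 0.81 ± 0.18 (1.76-fold, adjusted p = 0.00657, limma).

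Mzb1 encodes an endoplasmic reticulum chaperone that helps plasma cells and marginal zone B cells assemble antibody. Marrow-only mice had 6.89, 6.85, 7 and 6.77 on vehicle and 6.79, 7.31, 6.74, 6.28 and 6.80 on ICA. T cell mice had 6.35, 6.37, 6.22 and 6.68 on vehicle and 6.91, 6.60, 6.11, 6.21 and 5.80 on ICA. The vehicle groups did not overlap, with 6.77 and 6.68 as the nearest values, and the ICA groups did. Differences of -0.47 ± 0.20 on vehicle and -0.46 ± 0.18 on ICA did not pass (adjusted p = 0.291 and 0.184, limma), while the average fall of 0.46 ± 0.13 did (adjusted p = 0.0377, limma). Without T cell ICA mouse 1 it fell on ICA by 0.60 (adjusted p = 0.0487, limma). The call on the average was lost in 12 of 18 cases when 1 mouse was left out, with adjusted p of 0.00695 to 0.0818 in limma.

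Tnfrsf17 encodes BCMA, the receptor for APRIL and BAFF that keeps plasma cells alive. On vehicle the marrow-only mice had 5.89, 5.87, 5.97 and 5.99 and the T cell mice 5.45, 5.30, 5.29 and 5.46. With ICA the marrow-only mice had 6.20, 5.83, 5.68, 5.92 and 5.60 and the T cell mice 6.66, 5.59, 5.51, 5.32 and 5.23. T cell ICA mouse 1 had the highest value of all 18 mice, and the other 8 T cell mice were below every marrow-only mouse. The differences were -0.55 ± 0.21 on vehicle (adjusted p = 0.224, limma) and -0.18 ± 0.19 on ICA (adjusted p = 0.701, limma). Without T cell ICA mouse 1 Tnfrsf17 fell on ICA by 0.43 (adjusted p = 0.0342, limma) and on average by 0.49 (adjusted p = 0.000626, limma).

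Some of these calls changed when single mice were left out. T cell ICA mouse 1 was the highest of its group for 7 of the 9 genes, on average 0.46 above its group mean, and without it 6 of 9 genes fell on ICA, where 1.74% of all genes were called lower: Cd79a, Cd79b, Ms4a1, Pou2af1, Mzb1 and Tnfrsf17. Marrow-only ICA mouse 2 was the highest of its group for 8 of 9 genes (on average 0.55 above), and marrow-only ICA mouse 3 the lowest for 6 of 9 (mean deviation -0.44). With only the 8 vehicle mice in the model 7 of 9 genes fell on vehicle, all but Cd22 and Pax5, where 1.41% of all genes were called lower. With only the 10 ICA mice 2 of 9 fell on ICA, where 0.987% of all genes were called lower, and Ms4a1 lost its call (adjusted p = 0.102, limma). Without T cell ICA mouse 1 and marrow-only ICA mouse 2, which enter the shared spread, 5 of 9 fell on vehicle, where 1.18% of all genes were called lower: Cd79a, Cd79b, Fcrla, Pou2af1 and Tnfrsf17. On ICA 3 of 9 fell without these mice, the same count as with all mice, where 1.79% of all genes were called lower. When 1 vehicle mouse was left out the count on vehicle was 0 to 2. It was 0 without marrow-only vehicle mouse 1 or 4 or without T cell vehicle mouse 2 or 3, and 1 without T cell vehicle mouse 1 or 4. No share of all genes called is given for these fits. The count alone therefore does not tell a change in the 9 genes from a change in all genes.

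**Figure D2:**
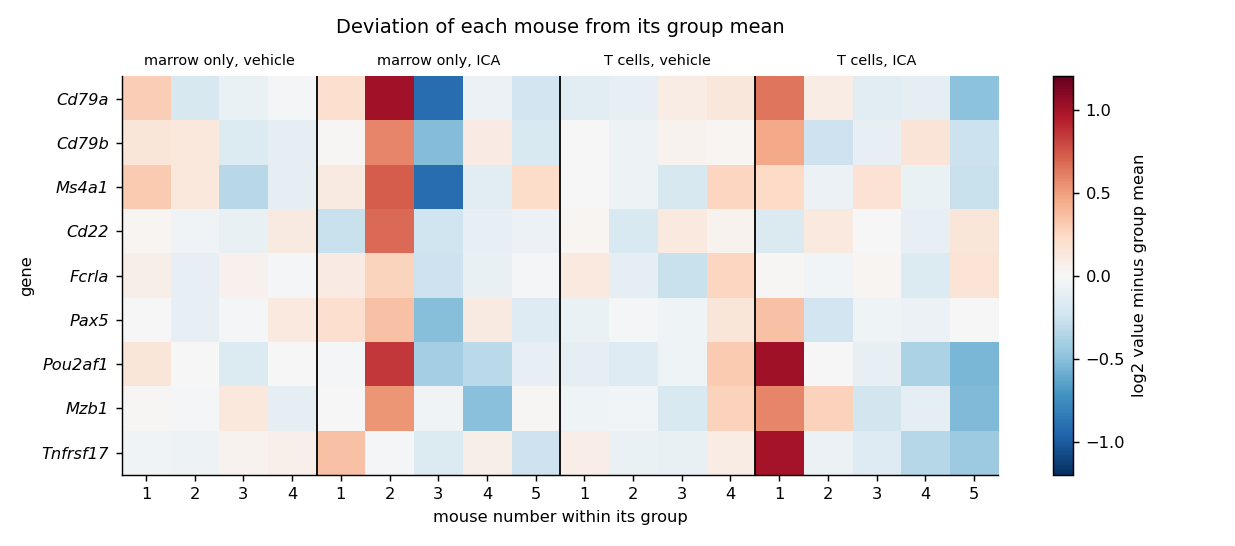
Each mouse's log2 value minus its group mean for the 9 genes (rows) in the 18 mice (columns, by group and mouse number), red above and blue below. In 8 of 9 rows each, T cell ICA mouse 1 and mouse 2 of the marrow-only ICA group are red, and marrow-only ICA mouse 3 is blue in all 9.

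ICA against vehicle was the study's other question, and none of the 9 genes passed it in either arm. With T cells 0 of 9 genes were called, where 0.0135% of all genes were, and 1 of 9 had an unadjusted p under 0.05 in limma (1529 genes overall). Differences ran from -0.08 for Mzb1 to 0.45 for Pou2af1 (95% interval -0.08 to 0.97), with a median of 0.24 against -0.01 over all genes. The smallest adjusted p was 0.646, for Fcrla, which differed by 0.27 ± 0.11. For Cd22, 0.24 higher on ICA, the exact permutation test over the mice gave p = 0.0317 (adjusted p = 0.104 over 36 tests). Pou2af1 differed by 0.45 with T cell ICA mouse 1 and by 0.19 without it, and Tnfrsf17 by 0.29 and by 0.04.

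Without T cells 0 of 9 genes were called between ICA and vehicle, where 0.00451% of all genes were, and 1 of 9 had an unadjusted p under 0.05 in limma (1669 genes overall). Differences ran from -0.10 for Mzb1 to 0.31 for Cd22 (95% interval 0.02 to 0.61, adjusted p = 0.653, limma). Cd79a differed by 0.26 in this arm and by 0.26 with T cells. The test of whether the T cell effect differed between ICA and vehicle called 0 of 9 genes and 0% of all genes, and 0 of 9 had an unadjusted p under 0.05 in limma (1482 genes overall). Its values ran from -0.21 for Ms4a1 to 0.45 for Pou2af1, and the 95% interval for Cd79a was -0.76 to 0.76. The 95% interval of the ICA difference in Cd79a reached 0.80 in both arms, so the missed threshold does not show that ICA left these genes alone. The comparisons share mice: each treatment comparison reuses a group of a T cell comparison.

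**Figure D3:**
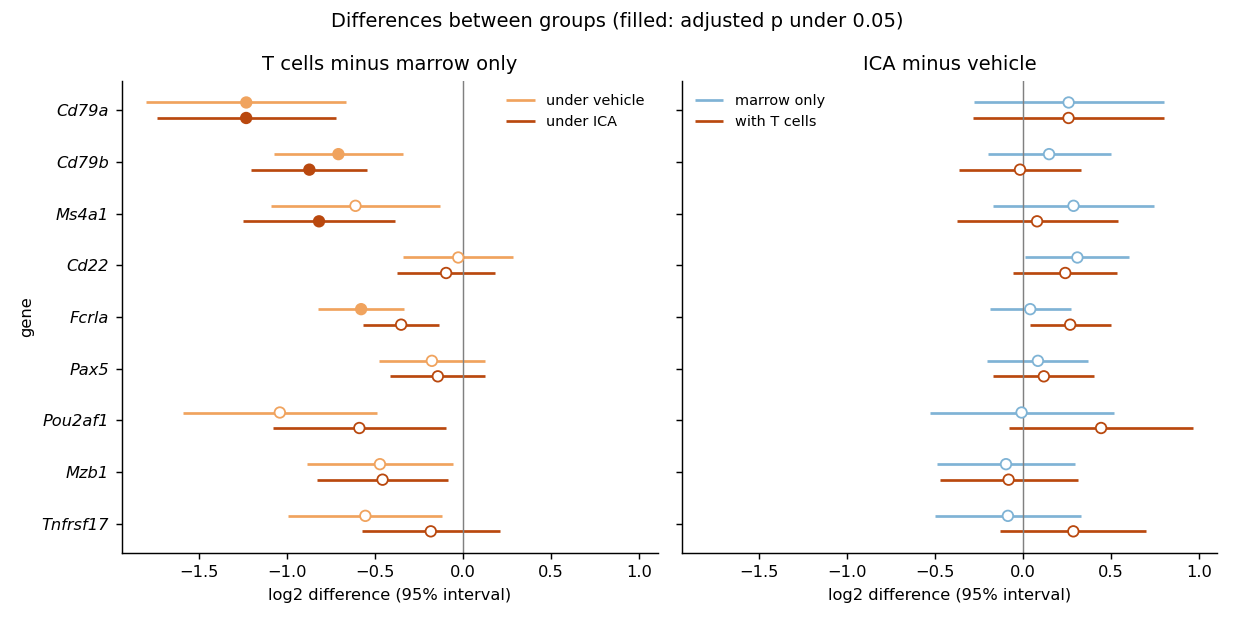
Log2 differences (horizontal axis) with 95% intervals for the 9 genes, T cell minus marrow-only mice at left and ICA minus vehicle at right; filled points passed an adjusted p under 0.05. Filled points appear only at left, for Cd79a and Cd79b under both treatments, Fcrla on vehicle and Ms4a1 on ICA.

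Variation from mouse to mouse was compared within groups. After each group's mean was subtracted, 35 of the 36 pairs had a Pearson r above 0, from -0.23 (Cd22 and Tnfrsf17) to 0.88 (Cd79a and Cd79b), and 9 pairs passed a within-group permutation test with adjustment over the 36. By Spearman's rho 2 of the 36 passed, Cd79a with Pou2af1 and Ms4a1 with Pou2af1 (rho = 0.77, permutation adjusted p = 0.013). For Cd79a and Pou2af1 r was 0.86 (permutation p = 9e-05, adjusted p = 0.00324) and Spearman's rho 0.74 (permutation p = 0.00203, adjusted p = 0.0365), and r was 0.87 without the 2 mice farthest out on Cd79a and 0.69 without T cell ICA mouse 1 and marrow-only ICA mouse 2. Cd79a and Cd79b gave r = 0.88 (permutation p = 0.00213, adjusted p = 0.0192) and rho = 0.63 (permutation p = 0.0262, adjusted p = 0.101), with r = 0.69 without those 2 mice, marrow-only ICA mice 2 and 3. With all mice 20 of the 36 pairs had r above 0.5. The number was 13 of the 36 with 2 mice left out of each pair, those farthest out on the pair's first gene in a fixed gene order. Without T cell ICA mouse 1 and marrow-only ICA mouse 2 the 9 pairs that passed had r from 0.27 (Cd79b and Pou2af1, 0.77 with all mice) to 0.74. In the 8 pairs that hold Cd22, r ran from -0.54 to 0.43 with the 2 mice farthest out on the pair's first gene left out. All values come from the same 18 arrays, so they also share each array's quality.

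Among the other 22171 genes, the 8 whose within-group pattern was most like the mean of the 9 were Mir92b (r = 0.92), Olfr1205 (0.91), Snord89 (0.90), Zfp319 (0.89), Klk1b16 (0.86), Tmem169 (0.85), Zfp36l2 (0.84) and Vkorc1 (0.84). They include a microRNA, an olfactory receptor and a small nucleolar RNA, and no immunoglobulin segment. Without T cell ICA mouse 1 and marrow-only ICA mouse 2, r in the 16 remaining mice lay between 0.38 (Zfp36l2) and 0.82 (Klk1b16).

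Other genes of the B lineage were followed in lists. Which cells gave the RNA of these genes, of those that fell and those that rose alike, was not tested. Beside the list counts, 3.62% of all genes were called lower and 3.58% higher on average. On vehicle 0.681% were called lower and 0.794% higher, and on ICA 2.07% and 1.05%. Of 14 measured B cell surface genes, 4 fell and 1 rose on average: Cr2, the complement receptor CD21, fell by 0.67 ± 0.14 (adjusted p = 0.00456, limma). Fcmr, the IgM Fc receptor, fell by 0.67 ± 0.14 (adjusted p = 0.00404, limma). Cxcr5, the receptor that draws B cells into follicles, fell by 0.47 ± 0.10 (adjusted p = 0.00601, limma), and Fcer2a was the fourth. Ly86, the partner of CD180 that macrophages also make, rose by 0.45 ± 0.12 (adjusted p = 0.0317, limma). When 1 mouse was left out, Ly86 lost its call on average in 10 of 18 cases and Fcer2a in 12 of 18, while Cr2, Fcmr and Cxcr5 lost theirs in 0 of 18. On vehicle 0 of the 14 passed and on ICA 4 fell, among them Fcrl1 by 0.45 (adjusted p = 0.0397, limma). Fcrl1 lost this call in 9 of 10 cases when an ICA mouse was left out, Cr2 in 7, Fcmr in 4 and Cxcr5 in 0. With only the groups compared in the model 2 fell and 1 rose on vehicle and 1 fell on ICA, and the count that fell on ICA was 1 to 4 when 1 mouse was left out, and 1 without marrow-only ICA mouse 2 or 4 or T cell ICA mouse 3 or 4. The list's median was -0.14 on average, -0.08 on vehicle and -0.18 on ICA.

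Of 14 measured genes of signalling below the B cell receptor, 3 fell on average and 0 rose. Called or not, 7 of the 14 were lower on average, 6 on vehicle and 11 on ICA, and the rest were higher. Rasgrp3, a Ras activator, fell by 0.61 ± 0.11 on vehicle (adjusted p = 0.00565, limma), from 7.08 to 7.35 in marrow-only mice to 6.40 to 6.74 in T cell mice. Pik3ap1, the adaptor BCAP, fell by 0.55 ± 0.11 on vehicle (adjusted p = 0.0164, limma), and the scaffold Bank1 fell by 0.28 ± 0.08 on average (adjusted p = 0.0366, limma). On ICA 0 of the 14 passed in limma, the smallest adjusted p being 0.137, for Bank1, while Rasgrp3 and Pik3ap1 differed by -0.18 and -0.13 (adjusted p = 0.369 and 0.593, limma). Pik3ap1 lost its call on vehicle in 4 of 8 cases when a vehicle mouse was left out, and Rasgrp3 in 0 of 8. Bank1 lost its call on average in 12 of 18 cases when 1 mouse was left out. Medians were 0.05 on vehicle, -0.13 on ICA and -0.06 on average.

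Of 11 measured transcription factors of B cells, Bcl6, the repressor that germinal centre B cells need, was the one that fell. It dropped by 0.52 ± 0.11 on vehicle (adjusted p = 0.016, limma), by 0.44 ± 0.09 on ICA (adjusted p = 0.0114, limma) and by 0.48 ± 0.07 on average (adjusted p = 0.00027, limma). Its values were 7.79 to 8.16 and 7.95 to 8.36 in marrow-only mice on vehicle and ICA, and 7.33 to 7.68 and 7.60 to 7.92 in T cell mice. When 1 mouse was left out Bcl6 lost its call on vehicle in 3 of 8 cases and on ICA in 0 of 10. Ikzf3, the lymphoid factor Aiolos, which T cells also make, rose on average by 0.54 ± 0.13 (adjusted p = 0.0157, limma). The list's median was -0.07 on average.

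Among the 5 lists of B lineage genes, the plasma cell list had the most calls on average. Of 14 measured, 6 fell and 0 rose on average, and the list's median was -0.27. Xbp1, the factor that expands the secretory pathway, fell by 0.30 ± 0.07 on vehicle (adjusted p = 0.0333, limma) and by 0.35 ± 0.06 on ICA (adjusted p = 0.00294, limma). Creld2, an endoplasmic reticulum stress gene, fell by 0.55 ± 0.13 and 0.45 ± 0.12 (adjusted p = 0.0412 and 0.0425, limma). Fkbp11, an isomerase of the endoplasmic reticulum, and Tent5c, a poly(A) polymerase that stabilises antibody mRNA, fell on average by 0.47 and 0.40 (adjusted p = 0.00521 and 0.0125, limma), and Derl3 and Jchain were the other 2. Jchain fell by 1.47 ± 0.41 (adjusted p = 0.0347, limma), a call lost in 9 of 18 cases when 1 mouse was left out. The rest of the list was not called on average. Prdm1 differed by -0.28, Hsp90b1 by -0.25, Edem1 by -0.15 and Irf4 by -0.07, and Txndc5 by 0.03, Sdc1 by 0.04, Ell2 by 0.08 and Slamf7 by 0.26. On vehicle, where 2 fell, the count was 1 without marrow-only mouse 3 or T cell mouse 1 and 0 without any other vehicle mouse. On ICA, where 2 fell, it was 1 to 3 with 1 mouse left out and 1 without T cell mouse 1, 2, 3 or 4 or marrow-only mouse 3 or 5, and on average 5 to 8. Creld2 lost its call in 8 of 8 cases on vehicle and in 7 of 10 on ICA, among them the case without T cell ICA mouse 1, and Xbp1 in 7 of 8 and in 0 of 10. With only the vehicle mice in the model 5 of the list fell on vehicle. Xbp1 and Creld2 are expressed by intestinal secretory cells as well as plasma cells, and which cells gave this RNA was not tested.

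Of 14 measured factors that keep or draw B cells, 3 fell on average and 0 rose. Called or not, 7 of the 14 were lower on average and the rest were higher. Cxcl13, the follicular chemokine that binds CXCR5, fell by 0.91 ± 0.15 on ICA (adjusted p = 0.00143, limma), from 9.57 to 10.65 in marrow-only mice to 8.91 to 9.53 in T cell mice, and on vehicle it differed by -0.28 (adjusted p = 0.538, limma). Ccl28, an epithelial chemokine for IgA plasma cells, fell on average by 0.56 ± 0.11 (adjusted p = 0.00233, limma). Pigr, the epithelial receptor that carries IgA into the lumen, fell on vehicle by 0.43 ± 0.10 (adjusted p = 0.0277, limma) and differed by -0.09 on ICA (adjusted p = 0.661, limma). Its call on vehicle was lost in 5 of 8 cases when a vehicle mouse was left out. The list's median was -0.04 on average, close to that of all genes.

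Markers of other cells and structures also moved with the graft arm. Beside the counts on average, 3.62% of all genes were called lower and 3.58% higher. Of 14 measured genes of Peyer's patch follicles and their epithelium, 4 fell on average (Clu by 0.68, Cxcl13 by 0.59, Cr2 by 0.67 and Fcer2a by 0.41) and 0 rose; Cxcl13, Cr2 and Fcer2a also stand in the lists above. The mean of this list was 7.13 to 7.42 and 7.23 to 7.71 in marrow-only mice on vehicle and ICA, and 7.13 to 7.27 and 7.07 to 7.26 in T cell mice. How much follicle each piece of ileum held is not given, and its part in the falls of the 9 genes was not tested. Of 14 T cell markers 8 rose on average, Cd8b1 by 1.97 ± 0.13 and Cd8a by 2.00 ± 0.16 (adjusted p = 5.84e-08 and 7.53e-07, limma). When 1 mouse was left out 4 to 9 rose on average. Cd8a, Cd8b1, Cd3e and Cd3g lost this call in 0 of 18 cases, Cd3d in 15, Lat in 12, Cd2 in 11 and Thy1 in 6. Cd8a was 6.33 to 7.24 in marrow-only mice and 7.95 to 9.52 in T cell mice, T cell ICA mouse 1 included. Cd3e and Cd3g rose on vehicle by 1.32 and 1.73 (adjusted p = 0.0385 and 0.0164, limma) and differed by 0.69 and 0.88 on ICA (adjusted p = 0.215 and 0.147, limma). The call of Cd3e on vehicle was lost in 7 of 8 cases and that of Cd3g in 2 of 8 when a vehicle mouse was left out. Cd4 fell by 0.71 on ICA (adjusted p = 0.0448, limma), a call lost in 7 of 10 cases when 1 mouse was left out, T cell ICA mouse 1 among them.

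The mean of the T cell list was 6.66 to 7.14 and 6.73 to 7.75 in marrow-only mice on vehicle and ICA, and 7.50 to 8.23 and 7.38 to 8.03 in T cell mice. Of 13 macrophage and dendritic cell markers 8 rose and 1 fell on average, with list means of 7.84 to 8.12 and 7.82 to 8.53 without T cells against 8.23 to 8.57 and 8.06 to 8.63 with them. Of 8 smooth muscle markers 7 rose on average, with list means of 10.50 to 10.72 and 10.49 to 10.75 without T cells against 10.79 to 11.10 and 10.83 to 11.26 with them. Among 7 plasmacytoid dendritic cell markers 1 fell, Ly6d, by 0.92 ± 0.13 on average (adjusted p = 0.000208, limma), a gene that B cell precursors also make. Of 12 neutrophil and mast cell markers 1 rose on average, Retnlg, by 1.47, with 2.20 on vehicle (adjusted p = 0.00565, limma) and 0.74 on ICA (adjusted p = 0.283, limma). The mast cell protease Mcpt1 fell by 2.44 on vehicle (adjusted p = 0.0127, limma) and differed by 0.75 on ICA (adjusted p = 0.4, limma). Mcpt2 fell by 2.41 on vehicle (adjusted p = 0.0244, limma), a call lost in 6 of 8 cases when a vehicle mouse was left out, and differed by 0.49 on ICA (adjusted p = 0.681, limma). Of 11 ileal epithelial markers 1 fell, the Paneth cell gene Lyz1, by 0.45. The part of these shifts in the makeup of the tissue in the falls of B cell and plasma cell genes was not tested.

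**Figure D4:**
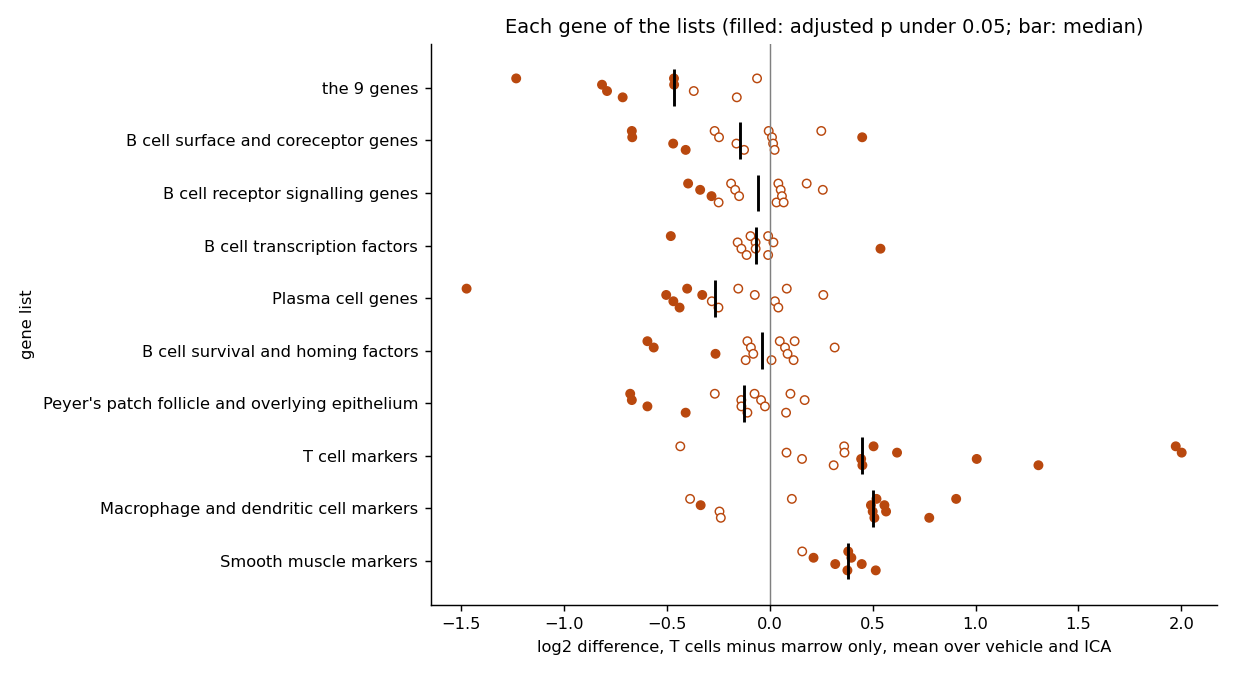
Log2 difference of T cell minus marrow-only mice, averaged over both treatments (horizontal axis), for every measured gene of 10 gene lists; filled points passed an adjusted p under 0.05 and bars are list medians. The 9 genes have a median of -0.47 and the plasma cell genes -0.27, while the T cell, macrophage and smooth muscle markers have medians above 0.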

How the data were processed

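Total RNA of the ileum was extracted with Trizol and hybridised to Affymetrix whole-transcript arrays, 1 per mouse, each mouse a biological replicate per the labels. The deposited log2 values were normalised by the authors; the submitters' processing notes name RMA, Partek and GenomeStudio without versions, and the log base is not stated and was taken as log2 from the range of the values. RMA pulls the arrays to one distribution, so a shift shared by all genes cannot be seen, and signals near background understate differences.

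The table held 41345 probe sets, of which 23521 had 1 symbol in the platform annotation, 1814 several and 16010 none listed. A gene was read from its probe set with the highest mean, which gave 22180 genes. In R 4.3.3, limma 3.58.1 fitted 1 mean per group to all 18 arrays with a trend of the prior variance (14 residual and 6.1 prior degrees of freedom). Tests were two-sided and adjusted by Benjamini-Hochberg over all genes within each of 6 comparisons. Exact permutation tests of the 9 genes gave 36 p values, adjusted together. Correlations used 100000 permutations within groups. Intervals are 95%. The number of mice limits the precision. The fit was tested on simulated data.

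The 9 genes and the 12 gene lists, with 146 of 161 entries measured, were chosen with earlier results of these data known. From each list the text names up to 4 genes with the smallest p among those that passed, or 1 where none did, and others only to complete a count. The nearest patterns are the 8 highest r. Promoters come from RefSeq, build GRCm38.p6, without those of chromosome 18; no build is given for the array. Alternatives were other models, filters, normalizations, probe-set rules and mice left out. Figures were drawn with matplotlib 3.10.9.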

Additional observations from a re-analysis of the deposited data

Results flagged for a closer look

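Of the 36 sets of values formed by 9 genes and 4 groups, 2 held a mouse whose gap to the nearest other mouse of its group was above Dixon's 95% critical value, and chance gives about 1 in 20. Cd22 was 7.55 in marrow-only ICA mouse 2, against 6.60 to 6.80 in the other mice of that group. Tnfrsf17 was 6.66 in T cell ICA mouse 1, against 5.23 to 5.59 in the other mice of that group. No difference between the 2 treatments or the 2 arms passed the interaction test for any of the 9 genes in limma, where the smallest adjusted p was 0.823.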

How the results depend on the processing

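On vehicle, 3 of the 9 genes were called in T cell against marrow-only mice, where 0.681% of all genes were called lower. The count was 7 with only the vehicle mice in the model, where 1.41% of all genes were called lower. It was 5 without T cell ICA mouse 1 and marrow-only ICA mouse 2 (chosen after seeing the data), where 1.18% were. With array weights it was 5, with all probe sets 1, with a robust prior 1 and in a 2-sample test of each gene with unequal spread 0. Without 1 mouse the count was 0 to 2. On ICA 3 were called, where 2.07% of all genes were called lower. The count was also 3 without T cell ICA mouse 1 and marrow-only ICA mouse 2, where 1.79% were. The count was 2 with only the ICA mice in the model, where 0.987% were (Ms4a1 lost its call, adjusted p = 0.102, limma). It was 1 under each of the 2 filters on low values, which removed most of the 9 genes, 0 in the 2-sample test, and 2 to 6 without 1 mouse. For the average of both, where 6 were called beside 3.62% of all genes lower, the filters left 2 and 3, and leaving out 1 mouse gave 5 to 7. For the settings named here without a share of all genes called, the count alone does not tell a change in the 9 genes from a change in all genes. The ICA comparisons and the interaction had 0 calls under every alternative run. Of 1245 values of single genes set against an alternative, 1174 kept direction and side of the threshold, 51 lost a call, 20 gained one and 0 called values turned sign. Cd79a, Cd79b, Fcrla, Ms4a1 and Pou2af1 kept their call in the average under all alternatives that tested them.

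The mouse numbers do not pair mice across groups: of 24 same-number pairs 3 had r over 0.1 (-0.142 to 0.201), and 2 of 18 mice were most like a mouse of their own number. With the number as a replicate block the counts were 4 on vehicle, 3 on ICA, 6 on average and 0 in the others; Pou2af1 was the gene gained on vehicle (adjusted p = 0.0415, limma). A model of only the groups compared is no separate setting for the average or the interaction, and the 2-sample test was not run for the interaction. Probe signal over background is not given in the sources used here.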
